A study of Mus musculus with 30 samples.

Results

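The diaphragm, the main muscle of breathing, was compared across all genes between mice that lack *Mtm1* (*Mtm1*-/y, KO) and wild-type (WT) littermates, in the deposited count table. The 7 diaphragm libraries, 4 WT (WT 1 to 4) and 3 KO (KO 1, KO 2 and KO 4), were taken by their labels from the 30 libraries of the series, which also hold gastrocnemius, heart and liver. Each library came from the whole, snap-frozen diaphragm of 1 male mouse of 5 weeks on the 129Pas background. *Mtm1*-/y mice are constitutive knockouts, with the disrupted gene on their only X chromosome and in every tissue, and they model X-linked myotubular myopathy (XLMTM), also called X-linked centronuclear myopathy. The mice were untreated. Poly(A) RNA was sequenced, and the values are raw read counts, with 24873817 to 44289343 counts per diaphragm library. Levels are given here as counts per 1000000 counts (CPM), scaled by TMM, and the levels of 1 gene are listed in the order WT 1, 2, 3 and 4 or KO 1, 2 and 4. Log2 fold changes are KO minus WT, with their standard error (SE).

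*Mtm1* encodes myotubularin, a phosphatase that removes a phosphate from phosphoinositide lipids of endosomal membranes. In muscle the protein is known for its part in membrane traffic and in the upkeep of the triad, the junction of transverse tubule and sarcoplasmic reticulum at which an action potential releases calcium. Loss of myotubularin gives small fibres with centrally placed nuclei, disordered triads and severe weakness, and failure of the respiratory muscles is a main clinical feature of XLMTM. Muscle that is denervated, injured or immature re-expresses a well-known set of genes, among them the fetal acetylcholine receptor subunit, myogenin and embryonic myosin, while muscle under load induces sarcomere-linked stress proteins and matrix genes.

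The diaphragm lies against the liver, and the libraries held unequal amounts of hepatocyte RNA. The share of liver RNA was estimated as the median, over 118 liver-specific genes, of the level in a library divided by the mean level in WT liver. It was 26.4%, 17.9%, 0.391% and 21.0% in the WT libraries and 3.07%, 32.3% and 0.626% in the KO libraries. Gastrocnemius and heart libraries of both genotypes had at most 0.0883%. Albumin (*Alb*) accordingly ran from 284 to 31876 CPM of the library total. High and low shares therefore occurred in both genotypes, with WT 3 and KO 4 nearly free of liver RNA and KO 2 holding the most. The first principal component of all genes held 69.5% of the variance, and all of its 50 leading genes were liver-enriched, meaning over 10 times higher in WT liver than in WT gastrocnemius. On the second component, with 10.6% of the variance, the KO libraries scored −28.2, −19.3 and −18.4 and the WT libraries 4.11, 17.7, 34.7 and 9.42, so that the genotypes did not overlap. Only 1 of the 50 leading genes of that component was liver-enriched. Skeletal muscle markers were abundant in every library, with summed levels of 84690 to 125200 CPM in WT and 84260 to 115800 CPM in KO, and the mesothelial markers *Upk3b* and *Msln*, which mark the lining of the diaphragm, were present in all 7.

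**Figure D1:**
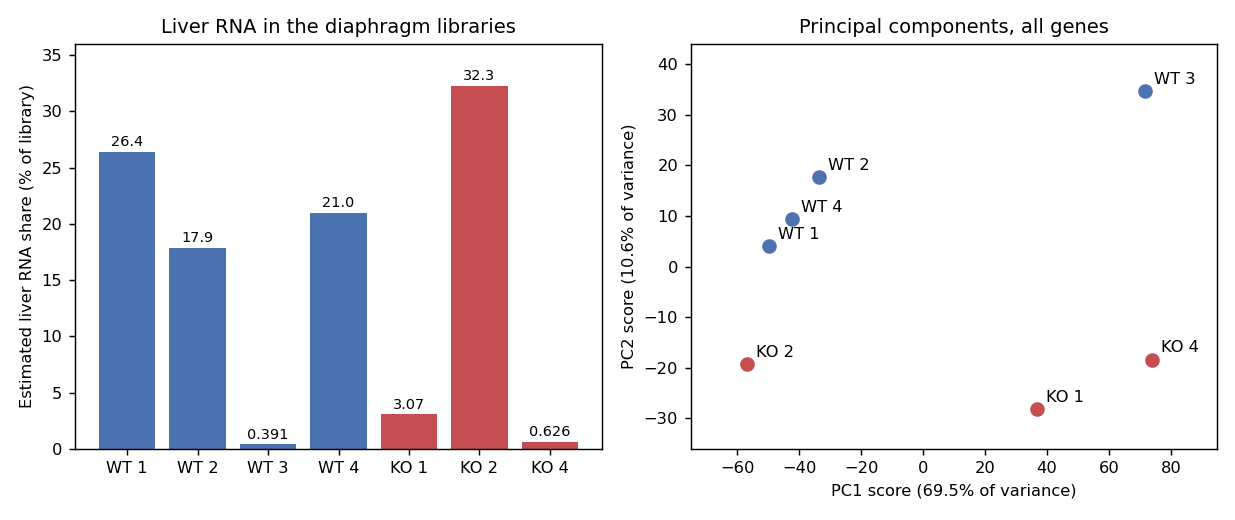
Left, the estimated share of liver RNA (percent of the library) in each diaphragm library, as bars from 0. Right, the scores of the same libraries on the first 2 principal components of all genes. Liver RNA ran from 0.391% to 32.3%, with high and low shares in both genotypes. On the second component the 3 KO libraries (red) lay below 0 and the 4 WT libraries (blue) above 0.

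Expression differed between the genotypes in 301 genes by DESeq2, the tool of the study, and in 2 by edgeR. A gene was called when its adjusted p was under 0.05 and its log2 fold change was above 1 or below −1. edgeR's quasi-likelihood test called 2 of 16796 genes (0.0119%), *Mtm1* and the processed pseudogene *Gm11512*, both lower. Before adjustment, 1106 genes (6.58%) were higher and 700 (4.17%) lower at p under 0.05. DESeq2 at the same thresholds called 301 of 18507 genes (1.63%), 241 higher (1.3%) and 60 lower (0.324%). The biological coefficient of variation that edgeR estimated over all genes was 0.394 in this muscle against 0.171 in the gastrocnemius, and it was 0.192 once the log2 liver RNA share was a covariate. With that covariate edgeR called 28 genes (0.167%), 17 higher (0.101%) and 11 lower (0.0655%), of which 27 were among the 301 of DESeq2. DESeq2 with the covariate called 302 genes (1.79%), 244 of them shared with its fit without it. Of the 301 genes, 4 were liver-enriched, and 229 (184 higher and 45 lower) were called by DESeq2 in each of 4 fits, with all libraries, with the covariate, without KO 2 and after subtraction of the estimated liver RNA, the last of which called 400 (2.26%). Over the 232 genes called higher that edgeR also tested, the median log2 ratio to the WT mean was 1.43 in KO 1, 0.62 in KO 2 and 1.71 in KO 4, and KO 2 was the lowest KO library in 194 of them (83.6%), against 38.2% of all tested genes. For the 60 lower genes the medians were −1.06, −1.08 and −1.22. These genes were picked on the same libraries, so the medians describe them and test nothing. KO 2 held the most liver RNA, and the part of liver RNA in its smaller rises was not tested. Without KO 2, edgeR called 140 genes (0.81%), 113 higher (0.654%) and 27 lower (0.156%), and DESeq2 called 962 (5.42%). That fit set KO 1 and KO 4, with 3.07% and 0.626% liver RNA, against WT libraries of 0.391% to 26.4%. The median log2 fold change of the hepatocyte markers was −3.2 in it, against −0.35 with all libraries. Genotype and liver RNA share are thus confounded without KO 2, and lower liver-expressed genes cannot be told apart from less liver RNA.

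**Figure D2:**
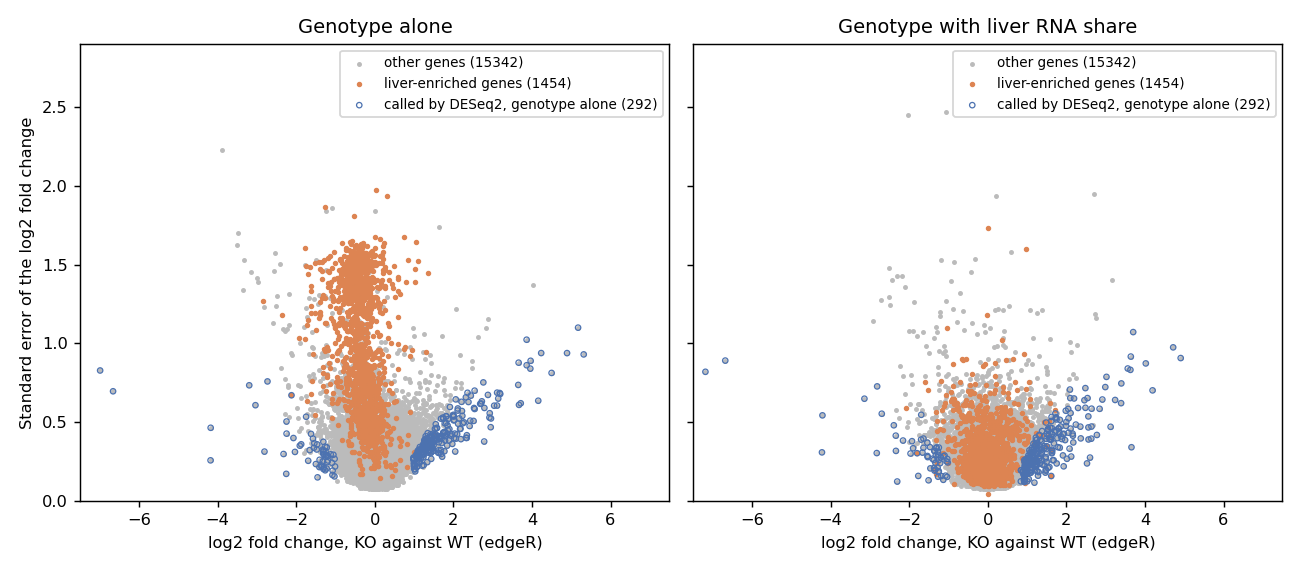
Each point is 1 gene, with the log2 fold change from edgeR on the x axis and its standard error on the y axis, for the fit with genotype alone (left) and the fit with the liver RNA share as a covariate (right). Liver-enriched genes (orange) had standard errors up to about 2 in the left panel and most lay under 1 in the right panel. The 292 genes called by DESeq2 that edgeR also tested (blue rings) lay along both outer edges, and 2 genes with larger standard errors fall outside the right panel.

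In the following, "rose" and "fell" mean an adjusted p under 0.05 by DESeq2 with genotype alone, unless edgeR is named. At that threshold alone, 314 genes rose (1.7%) and 124 fell (0.67%) in the whole table. The same shares were 2.56% and 1.36% with the liver RNA share as a covariate and 5.54% and 3.83% without KO 2, and list counts from those fits are to be read against them. By edgeR the 2 that fell (0.0119%) were the calls named above, and the median log2 fold change of all genes edgeR tested was −0.01. Among the genes chosen by the naming rule 98 passed, and for all of them except *Mtm1* and *Gm11512* edgeR's adjusted p was between 0.13 and 0.34. Of the 98, 92 also passed DESeq2 with the liver RNA share as a covariate, which gave an adjusted p for 97 of them, and 95 passed it without KO 2. In 90 of the 98 no KO library overlapped a WT library, which held for 9.97% of all tested genes, and absence of overlap was part of the rule for some of them. All 98 were picked by their adjusted p in the same libraries, so this count describes them and tests nothing. Those of the 98 whose genotypes overlapped include *Fstl1*, *Col12a1*, *Ccn2*, *Ccl12*, *Ms4a7*, *Ccna2* and *Hmmr*. Lists are described by how many of their measured members rose or fell. A whole muscle holds fibres, connective tissue, vessels, nerve and blood cells, and more cells of a type cannot be told apart from more RNA per cell.

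The targeted gene was low in every KO library. *Mtm1* (ENSMUSG00000031337, mm10 chrX:71210767-71315691, plus strand) was at 20.7, 21.7, 28.5 and 18.7 CPM in WT and 4.88, 4.39 and 4.77 CPM in KO. All 3 KO libraries lay far below the lowest WT library, and edgeR gave a log2 fold change of −2.26 (SE 0.17) and an adjusted p of 0.027. None of the other 24 measured phosphoinositide phosphatases and kinases, among them the myotubularin relatives, rose or fell, and without KO 2 *Mtmr11* and *Vac14* rose, named after their values were seen. Of 15 genes of dynamin, amphiphysin and membrane remodelling, *Ehd4*, an endocytic recycling ATPase, rose from 68.8 to 94.2 CPM in WT to 105 to 198 CPM in KO (log2 fold change 1.08, SE 0.24, DESeq2 adjusted p = 0.0045). *Cavin2*, a coat protein of caveolae, fell from 147 to 173 to 119.9 to 122 CPM (log2 fold change −0.44). *Dnm2*, the membrane-cutting GTPase that is mutated in another centronuclear myopathy, was at 87.1, 75.3, 84.7 and 74.9 CPM in WT and 82.5, 87.8 and 84.7 CPM in KO. Its genotypes overlapped, and the log2 fold change was 0.08 (SE 0.10), with an edgeR adjusted p of 0.88.

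Genes known to respond to denervation stood out among the muscle lists. Of 20 measured members 9 rose and 1 fell, with a median log2 fold change of 1.13, and 11 rose and 1 fell both with the liver RNA covariate and without KO 2. *Myog*, the muscle transcription factor myogenin, which is also in the list of embryonic and regenerating muscle, was at 11.2, 8.42, 9.85 and 6.83 CPM in WT and 69.6, 20.1 and 47.8 CPM in KO. The lowest KO library stood above the highest WT library, and the log2 fold change was 2.34 (SE 0.40), with a DESeq2 adjusted p of 4.0e-06. *Runx1*, a transcription factor induced when a muscle loses its nerve, was at 3.89, 5.36, 3.79 and 4.06 CPM in WT and 31.6, 8.405 and 24.96 CPM in KO (log2 fold change 2.34, SE 0.42). KO 1 and KO 4 held several times the WT level while KO 2 lay nearer to WT. *Eda2r*, the receptor of ectodysplasin A2, was at 11.4, 17.7, 22.3 and 13.2 CPM in WT and 86.2, 34.98 and 100.1 CPM in KO. It passed edgeR with the liver RNA covariate (adjusted p = 0.04, log2 fold change 1.93). *Dach2*, which encodes a repressor of myogenin, was the member that fell, from 8.88 to 14.7 CPM in WT to 5.55 to 6.4 CPM in KO (log2 fold change −0.98, SE 0.19). *Ncam1*, the neural cell adhesion molecule, rose and was at 10.7, 13.04, 18.3 and 12.7 CPM in WT and 46.4, 28.2 and 101 CPM in KO. Some members did not pass. *Sln*, a small inhibitor of the calcium pump, was already at 303, 341, 464 and 353 CPM in WT and at 339, 667 and 706 CPM in KO, with overlapping genotypes (DESeq2 adjusted p = 0.28), and *Gadd45a*, a stress-induced gene, was at 7.303 to 14.7 and 8.79 to 15.02 CPM. *Ncam1*, *Sln* and *Gadd45a* were chosen after their values were seen.

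**Figure D3:**
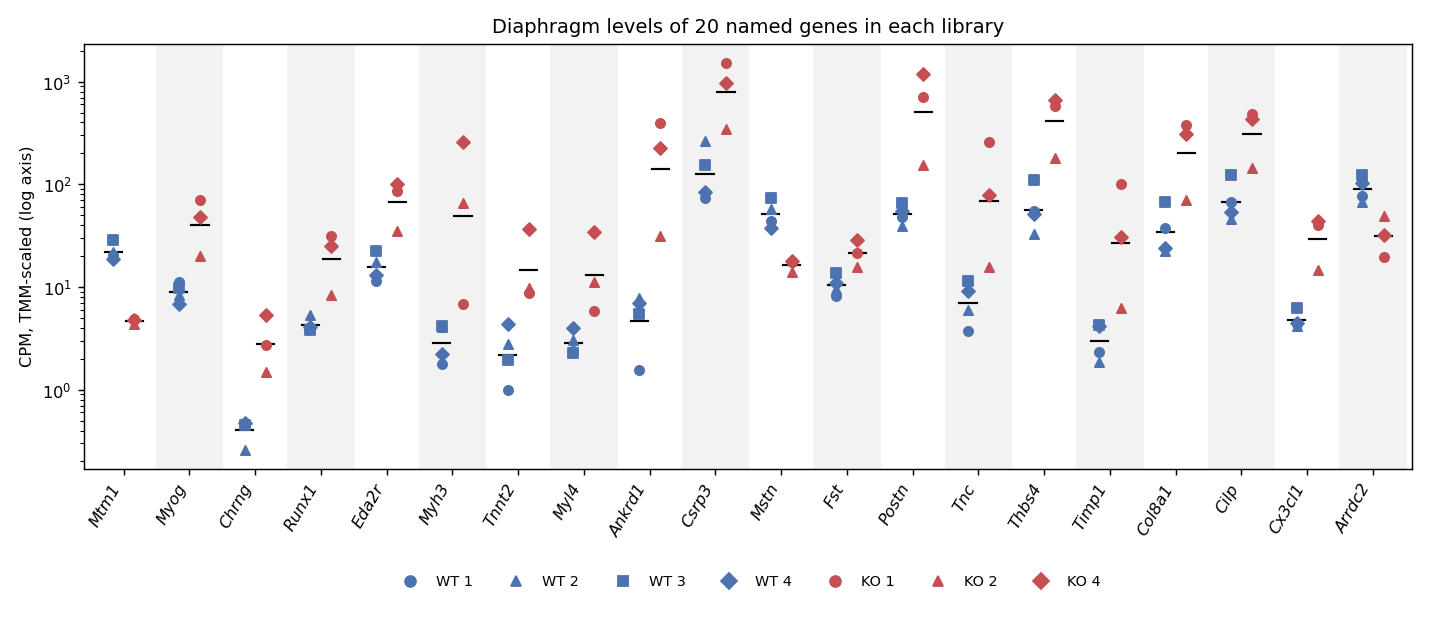
Levels of 20 named genes in the diaphragm (CPM, TMM-scaled, log axis), 1 point per library, with WT in blue and KO in red, the marker shape giving the replicate number and the black bar the geometric mean of a group. The KO points of all 20 genes lay wholly above or wholly below the WT points, and KO 2 (red triangle) was often the KO point nearest to WT. Absence of overlap was part of the rule that picked most of these genes, so their separation describes them and tests nothing.

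The acetylcholine receptor of adult muscle fibres uses the epsilon subunit *Chrne*, and fetal or denervated muscle the gamma subunit *Chrng*. *Chrng* was at 0.463, 0.261, 0.457 and 0.477 CPM in WT and 2.697, 1.49 and 5.38 CPM in KO. Its level was low throughout, but each KO library exceeded every WT library, and the log2 fold change was 2.95 (SE 0.47), with a DESeq2 adjusted p of 4.0e-06. It was the 1 gene that rose among the 17 members of the acetylcholine receptor and neuromuscular junction list, whose median log2 fold change was 0.22. With the liver RNA covariate 4 members rose, *Chrng* and the subunit genes *Chrna1*, *Chrnb1* and *Chrnd*, and the same 4 rose without KO 2. *Chrna1*, the alpha subunit, was at 17.98, 17, 27.3 and 11.7 CPM in WT and 49.9, 19.2 and 42.6 CPM in KO (DESeq2 adjusted p = 0.16, and 0.027 with the covariate). *Chrne* was at 6.63, 7.47, 10.1 and 4.33 CPM in WT and 6.301, 6.31 and 6.74 CPM in KO, with overlapping genotypes. Values of *Chrna1* and *Chrne* were chosen after they were seen.

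Myogenic factors such as myogenin bind the E-box, which has the letters CANNTG, and CAGCTG and CAGGTG are common forms of it at muscle genes. The promoters of 5 genes are shown. *Chrng* and *Chrna1* stand for the receptor subunits that rose, the latter with the liver RNA covariate, *Tnnt2*, *Myog* and *Myh3* for the risen genes of embryonic muscle described in the next paragraphs. The windows run from 250 bases before to 50 bases after the first RefSeq start of each gene (RefSeq, GRCm38.p6, which is mm10), and capitals mark every CANNTG. Both strands were searched, where CACCTG is CAGGTG read from the other strand, and both special forms are also CANNTG. *Chrng* (chr1:87205561-87205860, plus strand), *Chrna1* (chr2:73580289-73580588, minus strand), *Tnnt2* (chr1:135836084-135836383, plus strand), *Myog* (chr1:134289754-134290053, plus strand) and *Myh3* (chr11:67078050-67078349, plus strand) read as follows.
Chrng: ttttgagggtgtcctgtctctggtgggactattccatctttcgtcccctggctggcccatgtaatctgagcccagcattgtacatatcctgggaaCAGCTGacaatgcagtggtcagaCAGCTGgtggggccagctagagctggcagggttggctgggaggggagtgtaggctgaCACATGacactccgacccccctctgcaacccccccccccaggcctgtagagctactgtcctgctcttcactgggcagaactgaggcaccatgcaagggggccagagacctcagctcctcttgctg
Chrna1: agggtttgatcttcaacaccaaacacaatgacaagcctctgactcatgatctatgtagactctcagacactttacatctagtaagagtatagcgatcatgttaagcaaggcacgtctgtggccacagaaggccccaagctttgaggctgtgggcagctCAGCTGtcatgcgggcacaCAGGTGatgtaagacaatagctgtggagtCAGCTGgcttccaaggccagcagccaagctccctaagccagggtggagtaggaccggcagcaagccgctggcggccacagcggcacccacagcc
Tnnt2: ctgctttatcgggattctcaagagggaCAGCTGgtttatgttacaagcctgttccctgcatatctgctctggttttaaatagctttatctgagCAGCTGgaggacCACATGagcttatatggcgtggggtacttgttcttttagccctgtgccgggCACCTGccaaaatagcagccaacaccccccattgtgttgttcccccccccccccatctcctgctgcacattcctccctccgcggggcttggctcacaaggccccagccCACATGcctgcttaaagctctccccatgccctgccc
Myog: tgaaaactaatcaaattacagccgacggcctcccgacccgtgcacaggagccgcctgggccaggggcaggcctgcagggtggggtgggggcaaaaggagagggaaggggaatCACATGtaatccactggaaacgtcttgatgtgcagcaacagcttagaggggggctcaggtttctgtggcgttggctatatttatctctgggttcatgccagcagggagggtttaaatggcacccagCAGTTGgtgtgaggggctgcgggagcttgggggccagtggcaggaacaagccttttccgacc
Myh3: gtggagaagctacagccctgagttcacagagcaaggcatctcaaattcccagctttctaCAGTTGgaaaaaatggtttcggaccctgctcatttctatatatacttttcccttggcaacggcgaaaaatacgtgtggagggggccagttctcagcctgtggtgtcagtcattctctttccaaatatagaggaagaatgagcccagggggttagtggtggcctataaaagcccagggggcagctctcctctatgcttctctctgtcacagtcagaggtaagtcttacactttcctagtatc
CANNTG was present in 10 of the 11 promoters found for the acetylcholine receptor and neuromuscular junction list (90.9%), in 10 of 16 of the embryonic and regenerating muscle list (62.5%) and in 19498 of all 27025 promoters of this length (72.1%). CAGCTG or CAGGTG was present in 7 of the 11 (63.6%), in 1 of the 16 (6.25%, *Tnnt2*) and in 8810 of all promoters (32.6%). *Chrna1* held 3 such sites, *Chrng* 2 and *Tnnt2* 3. *Myog* and *Myh3* had CANNTG in other forms. These matches describe the letters of the windows only.

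Genes of embryonic and regenerating muscle formed the other muscle list with many changes. Of 23 measured members 10 rose and 2 fell, with a median log2 fold change of 0.80, and 11 rose and 2 fell with the liver RNA covariate. *Myh3*, the embryonic myosin heavy chain, was at 1.79, 4.102, 4.14 and 2.24 CPM in WT and 6.82, 65.3 and 261 CPM in KO (log2 fold change 5.17, SE 1.1, DESeq2 adjusted p = 0.0003). The 3 KO libraries differed widely, KO 1 lying nearest to WT and KO 4 holding the most. *Tnnt2*, the cardiac troponin T that immature muscle also uses, was at 0.987, 2.77, 1.96 and 4.33 CPM in WT and 8.804, 9.68 and 37.01 CPM in KO. *Myl4*, the embryonic and atrial myosin light chain, was at 2.41, 3.03, 2.28 and 4.03 CPM in WT and 5.78, 11.2 and 34.3 CPM in KO. In both genes KO 4 was the highest library, as it was for *Myh3*. *Mymk*, the fusion protein myomaker of differentiating myoblasts, rose from 0.447 to 1.26 CPM to 1.54 to 8.69 CPM (log2 fold change 2.52, SE 0.59). *Igf2*, a growth factor of fetal tissue, rose by a log2 fold change of 0.82 (SE 0.22) and did not pass without KO 2 (DESeq2 adjusted p = 0.056). *Actbl2*, an actin-like gene of low level, went the other way. It was at 0.308, 0.474, 0.359 and 0.268 CPM in WT and had no count in any of the 3 KO libraries, so no fold is given, and its DESeq2 adjusted p was 0.0011. *Dlk1*, a membrane protein of fetal tissue named here after its value was seen, was the other member that fell, from 2.48 to 3.89 CPM in WT to 1.41 to 1.705 CPM in KO (DESeq2 adjusted p = 0.031). *Meg3* and *Rian*, noncoding RNAs of the imprinted region that also holds *Dlk1*, were among the members that rose and were described after their values were seen. *Meg3* was at 154, 137, 196 and 118 CPM in WT and 262, 300.2 and 661 CPM in KO (log2 fold change 1.43, SE 0.35), and *Rian* was at 99.9, 108, 148 and 70.3 and 251, 204 and 635 CPM (log2 fold change 1.77, SE 0.44). *Myl6b*, a non-list myosin light chain of slow and fetal muscle, was among the largest rises, at 10.8, 18, 17.9 and 12.02 CPM in WT and 53.04, 55.04 and 254 CPM in KO. *A930003A15Rik*, a long noncoding RNA, was at 2.19, 2.798, 3.03 and 1.73 CPM in WT and 10.5, 9.43 and 36.8 CPM in KO, again with KO 4 the highest.

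Genes of the sarcomere stretch response gave the largest single rise. Of 19 measured members of this list, which includes the small heat shock proteins, 5 rose and 1 fell, with a median log2 fold change of 0.90, and without KO 2, 10 rose and 1 fell. *Ankrd1*, a titin-linked protein induced by mechanical stress, was at 1.57, 7.87, 5.42 and 6.92 CPM in WT and 398, 31.3 and 223 CPM in KO (log2 fold change 5.32, SE 0.93, DESeq2 adjusted p = 4.5e-06). This gene is also a member of the denervation list, so its rise counts in both lists. *Ankrd2*, its relative in stretched muscle, was at 18.6, 54.4, 47.4 and 20.1 CPM in WT and 532, 84.6 and 347 CPM in KO (log2 fold change 3.19, SE 0.68). *Csrp3*, the muscle LIM protein of the Z-disc, was at 73.4, 262, 155 and 84.8 CPM in WT and 1508, 349 and 961 CPM in KO (log2 fold change 2.71, SE 0.62). In all 3 genes KO 1 was the highest library and KO 2 the lowest of the KO libraries. *Hspb1* and *Hspb8*, chaperones that guard the sarcomere, rose by log2 fold changes of 1.74 (SE 0.43) and 0.90 (SE 0.22). *Tcap*, the titin cap protein, fell from 1444 to 2043 CPM in WT to 851 to 1189.6 CPM in KO (log2 fold change −0.71, SE 0.20). Of 19 measured keratins, intermediate filaments and tubulins 2 rose, the tubulin *Tubb6* (log2 fold change 2.03, SE 0.43) and nestin, *Nes* (log2 fold change 1.69, SE 0.39), an intermediate filament of immature and junctional muscle, and without KO 2, 8 rose. *Mustn1*, a nuclear protein of the musculoskeletal system, was at 23.8, 42.5, 39.3 and 36.5 CPM in WT and 626, 74.3 and 239 CPM in KO, and *Rrad*, a small GTPase that restrains calcium channels, at 6.85, 9.18, 8.35 and 4.33 and 274, 13.6 and 25.6 CPM. KO 1 stood far above the other libraries for *Rrad*.

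Myostatin, the secreted brake on muscle growth, fell and its antagonist follistatin rose. *Mstn* was at 43.9, 57.5, 73.9 and 37.7 CPM in WT and 17.6, 13.9 and 17.7 CPM in KO. The KO libraries were close together and all far below the lowest WT library, and the log2 fold change was −1.70 (SE 0.25), with an adjusted p of 5.3e-07 from DESeq2, 0.26 from edgeR and 0.019 from edgeR with the liver RNA covariate. *Fst* was at 8.11, 9.603, 13.7 and 10.9 CPM in WT and 21.4, 15.6 and 29 CPM in KO (log2 fold change 1.06, SE 0.25, DESeq2 adjusted p = 0.0096). *Fstl1*, a follistatin-like glycoprotein, also rose, by 1.23 (SE 0.36), and with *Mstn* these were the 3 of 22 measured members of the myostatin, follistatin and activin list that passed. *Arrdc2*, an alpha-arrestin that responds to load and glucocorticoids, was at 76.6, 66.6, 124 and 103 CPM in WT and 19.5, 48.9 and 31.96 CPM in KO (log2 fold change −1.47, SE 0.36). *Tsc22d3*, a glucocorticoid-induced gene, fell by a smaller amount, with a log2 fold change of −0.38 (SE 0.12), and these were the 2 of 21 members of their list that passed. *Tiam2*, an activator of the GTPase Rac, was at 3.52, 6.33, 6.62 and 4.89 CPM in WT and 20.9, 8.45 and 14.5 CPM in KO (log2 fold change 1.45, SE 0.34). In the insulin-like growth factor and AKT list 2 of 26 rose, *Igf2* and *Igfbp7*. None of the 24 measured muscle ubiquitin ligases of atrophy, the enzymes that mark muscle proteins for breakdown, rose or fell (5 had an edgeR unadjusted p under 0.05), and their median log2 fold change was 0.02. *Asb2* and *Asb15* fell with the liver RNA covariate, and 5 members rose without KO 2, *Fbxl22*, *Asb5*, *Klhl40*, *Klhl41* and *Trim72*, and *Fbxo31* fell, so the list's counts depend on the libraries used. These 8 genes were named after their values were seen.

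Extracellular matrix genes were the largest group of rises. Of 35 measured matricellular proteins and matrix glycoproteins 14 rose and 1 fell (median log2 fold change 0.90), of 32 matrix crosslinking enzymes and proteases 8 rose and 1 fell (0.69), of 31 collagen chains 6 rose and none fell (0.70), of 19 TGF-beta ligands, receptors and latent binders 3 rose (0.36), and of 29 integrins and laminins 2 rose (0.26). With the liver RNA covariate the rises numbered 14, 12, 9, 4 and 5 in this order, and without KO 2 they numbered 19, 16, 15, 9 and 7. *Postn*, periostin of remodelling matrix, was at 48.4, 39.4, 65.4 and 54.4 CPM in WT and 707, 155 and 1181 CPM in KO (log2 fold change 3.71, SE 0.62, DESeq2 adjusted p = 7.9e-09). *Tnc*, tenascin C, was at 3.73, 5.97, 11.4 and 9.07 CPM in WT and 259, 15.5 and 78.4 CPM in KO. *Thbs4*, a thrombospondin of tendon and muscle attachments, was at 55.04, 32.96, 109.7 and 51.4 CPM in WT and 573, 180.2 and 665 CPM in KO, and *Cilp*, an inhibitor of TGF-beta in cartilage and scar, at 67.4, 46.4, 124 and 53.6 and 481, 145 and 429 CPM. In these 4 genes KO 2 was the lowest KO library and still exceeded every WT library. *Thbs4* and *Cilp* also passed edgeR with the liver RNA covariate (adjusted p = 0.029 and 0.046). *Bgn*, the small proteoglycan biglycan, rose by 1.44 (SE 0.34). The elastic fibre genes *Eln*, elastin, *Fbn1* and *Fbn2*, the fibrillins that scaffold it, rose by log2 fold changes of 0.99 (SE 0.27), 1.29 (SE 0.41) and 2.01 (SE 0.53). *Ncan*, the brain proteoglycan neurocan, was the list member that fell, from 0.783 to 3.11 CPM to 0.171 to 0.259 CPM.

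Among the fibrillar collagens, *Col1a1* was at 672, 239, 616 and 441 CPM in WT and 1368, 866 and 1501 CPM in KO (log2 fold change 1.34, SE 0.38), and *Col3a1* at 1911, 906, 1967 and 1323 and 4659, 2139 and 4530.1 CPM (log2 fold change 1.31, SE 0.38). Both were higher in each KO library than in any WT library, by a modest margin in KO 2, and neither passed DESeq2 with the liver RNA covariate (adjusted p = 0.19 and 0.22). *Col1a2*, *Col5a2* and *Col12a1* rose by log2 fold changes of 1.26, 1.46 and 1.99. *Col8a1*, a short-chain collagen of vessel walls and scar, had the largest rise of the 6, from 22.5 to 67.9 CPM to 70.2 to 375 CPM (log2 fold change 2.72, SE 0.63), although KO 2 lay just over WT 3. *Timp1*, an inhibitor of matrix metalloproteinases, was at 2.31, 1.87, 4.31 and 4.15 CPM in WT and 101, 6.19 and 31.02 CPM in KO (log2 fold change 3.87, SE 0.86). Its relative *Timp4* fell, from 76.3, 63.99, 67.4 and 87.5 CPM in WT to 25.2, 38.7 and 25.4 CPM in KO (log2 fold change −1.31, SE 0.20), and passed edgeR with the liver RNA covariate (adjusted p = 0.046). *P4ha3*, a collagen prolyl hydroxylase, and *Adamts4*, a proteoglycan protease, rose by log2 fold changes of 3.11 (SE 0.60) and 2.02 (SE 0.40), the collagen crosslinking enzymes *Lox*, *Loxl3* and *Plod2* rose by 2.02, 1.22 and 1.35, and the proteases *Mmp14* and *Adam19* rose by 0.79 (SE 0.17) and 0.88 (SE 0.19). In the TGF-beta list the risen members were *Ccn4* (2.41, SE 0.47), *Ltbp2* (2.18, SE 0.46) and *Ccn2* (1.53, SE 0.46), that is 2 secreted matricellular proteins and a latent TGF-beta binding protein. In the covariate fit *Ccn2* did not pass, and *Tgfb3*, a TGF-beta ligand, and *Tgfbi* joined the list. The integrin chains that rose were *Itga5* (1.12, SE 0.24), which binds fibronectin, and *Itga9* (1.05, SE 0.29), and with the covariate *Itga7*, *Lama2* and *Lamc1*, chains of the muscle laminin receptor and of laminin, passed as well. Of the genes in this and the preceding paragraph, *Eln*, *Fbn1*, *Fbn2*, *Lox*, *Loxl3*, *Plod2* and those that passed with the covariate alone were described after their values were seen.

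Markers of tendon and of fibroblasts were measured beside the matrix genes. The summed level of 10 tendon markers was 112.6, 88.13, 304.8 and 209 CPM in WT and 1147, 290.1 and 1035 CPM in KO, so the genotypes overlapped by 1 library, KO 2. Of the 10, 2 rose, *Thbs4* and *Tnc*, which are also matricellular list members. The defining markers *Scx*, *Tnmd* and *Mkx*, used as a check, did not pass, and without KO 2 *Scx* did (DESeq2 adjusted p = 7.1e-05), with *Scx* at 2.56, 4.01, 3.26 and 2.21 CPM in WT and 8.31, 3.2 and 7.78 CPM in KO, *Tnmd* at 4.38, 3.89, 15.1 and 9.79 and 13.2, 7.51 and 31.7 CPM, and *Mkx* at 1.17, 1.35, 1.86 and 1.49 and 1.96, 1.71 and 2.198 CPM. Of 17 fibroblast markers 2 rose, *Lum* (log2 fold change 1.48, SE 0.37) and *Mfap5* (1.5, SE 0.39), and their summed level was 2179 to 3566 CPM in WT and 3008 to 4192 CPM in KO. The part of a larger share of tendon or fibroblast cells in the matrix rises was not tested.

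Immune genes changed in part. Of 23 measured chemokines and chemokine receptors 5 rose and 1 fell (median log2 fold change 0.28). *Cx3cl1*, fractalkine, which is also in the denervation list, was at 4.35, 4.13, 6.2 and 4.47 CPM in WT and 39.98, 14.8 and 44.03 CPM in KO. The WT libraries were close together and each KO library was over 2 times the highest of them, and the log2 fold change of 2.78 (SE 0.38) passed DESeq2 (adjusted p = 5.4e-10) and edgeR with the liver RNA covariate (adjusted p = 0.019). Its receptor *Cx3cr1*, carried by macrophages, was at 2.74, 0.972, 1.599 and 1.67 CPM in WT and 11.3, 3.16 and 8.24 CPM in KO (log2 fold change 2.12, SE 0.49). *Ccl12*, a monocyte attractant of low level, rose by a log2 fold change of 2.76 (SE 0.75). It was at 0.308, 0.166, 0.392 and 0.298 CPM in WT and 3.84, 0.299 and 1.69 CPM in KO, with KO 2 inside the WT range. *Cxcl10*, an interferon-induced chemokine, and *Cxcl16* rose by log2 fold changes of 1.51 (SE 0.41) and 0.63 (SE 0.15). *Cxcl10* is liver-enriched and passed neither without KO 2 (DESeq2 adjusted p = 0.069) nor after liver RNA subtraction (DESeq2 adjusted p = 0.14). *Ccl11*, the eosinophil attractant eotaxin, fell from 9.01 to 13.2 CPM to 3.59 to 7.099 CPM and did not pass without KO 2 (DESeq2 adjusted p = 0.051). Of 26 TNF, NF-kB and interleukin 6 pathway genes 4 rose, namely *Relb* (1.02, SE 0.20) and *Nfkb2* (0.92, SE 0.19), the pair of the non-canonical NF-kB pathway, *Tnip1* (0.44, SE 0.11) and the TWEAK receptor *Tnfrsf12a* (1.82, SE 0.54), which did not pass with the liver RNA covariate (DESeq2 adjusted p = 0.14).

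Of 10 MHC class II genes 3 rose (median log2 fold change 0.86) and 5 with the liver RNA covariate, by the addition of *H2-Ab1* and *Cd74*, and the summed level of the 10 was 360.3, 216.4, 163.9 and 361.1 CPM in WT and 620.4, 397.7 and 673.1 CPM in KO. Each KO library thus lay above all WT libraries. *H2-Aa* was at 71.5, 50.2, 38.3 and 71.4 CPM in WT and 119, 84.6 and 169 CPM in KO, *H2-Eb1* rose by a log2 fold change of 1.04 (SE 0.28), and *Ciita*, the regulator that switches these genes on, by 1.27 (SE 0.36). Of 24 macrophage and complement C1q genes 2 rose, *Ms4a7* (1.81, SE 0.50) and *Fcgr1* (1.81, SE 0.54). The defining macrophage markers *Adgre1*, *Csf1r* and *C1qa* overlapped between the genotypes, with *Adgre1* at 46.6, 46.6, 20.2 and 15.96 CPM in WT and 42.6, 20.9 and 38.5 CPM in KO. No lymphocyte marker of 14 measured rose or fell, and DESeq2 gave an adjusted p for 10 of them. None of the 14 had a positive log2 fold change, and the median was −1.26, or −0.44 with the liver RNA covariate. The summed level of that list varied most within WT, from 86.96 CPM in WT 3 to 1285 CPM in WT 4. Of the 10 neutrophil and mast cell markers measured none rose or fell.

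Proliferation genes leaned upward as a list. Of 31 mitotic and DNA replication genes 5 rose and none fell, 29 had a positive log2 fold change and the median was 1.03. With the liver RNA covariate 9 rose, and without KO 2, 19 rose. *Cdk1*, the kinase that drives entry into mitosis, was at 3.95, 3.296, 2.09 and 2.74 CPM in WT and 8.11, 4.91 and 8.29 CPM in KO (log2 fold change 1.23, SE 0.28, DESeq2 adjusted p = 0.0053). *Cenpf*, *Spag5* and *Hmmr*, proteins of the mitotic spindle and kinetochore, and *Ccna2*, cyclin A2, rose by log2 fold changes of 1.46, 0.99, 1.74 and 1.29. *Hmmr* did not pass after liver RNA subtraction (DESeq2 adjusted p = 0.44). All 5 were at under 14 CPM in every library.

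The contractile, calcium handling and energy genes that make up most of the muscle transcriptome showed little difference by these tests. None of 18 fast-fibre genes, 14 slow-fibre genes or 29 triad and excitation-contraction coupling genes rose or fell (1, 0 and 4 had an edgeR unadjusted p under 0.05), and the medians were −0.14, 0.34 and 0.05. With the liver RNA covariate 2 fast-fibre genes, *Pvalb* and *Gpd1*, and 1 gene of the triad list, *Kcna7*, fell. Without KO 2, *Myl1* of the fast-fibre list and *Cacnb1* and *Cacng1* of the triad list rose, and *Gpd1* fell. *Atp2a1*, the fast calcium pump, was at 11489 to 17668 CPM in WT and 10404 to 11956 CPM in KO (log2 fold change −0.40, SE 0.29), and *Mb*, myoglobin, at 6906 to 10740.3 and 6350.4 to 7071 CPM (log2 fold change −0.33, SE 0.24). Subunits of the respiratory chain shared a small negative value. In complex I, 1 of 37 subunits had a positive log2 fold change and the median was −0.17, and in complexes II to V, 1 of 42 was positive and the median was −0.19, while none in either list fell by DESeq2 (1 and 0 had an edgeR unadjusted p under 0.05), and without KO 2 *Ndufa6* fell. The median of all tested genes was −0.01. *Atp5b* of the ATP synthase had a log2 fold change of −0.16 (SE 0.20). The 7 measured mitochondrially encoded genes had a median of −0.31, with *mt-Co1* at −0.36 (SE 0.29). In 4 of the 7 every KO library lay below every WT library, as in 4.57% of all tested genes. After liver RNA subtraction 3 of the 7 fell, *mt-Co1* among them (DESeq2 adjusted p = 0.019). That fit called 2.26% of all genes when the fold threshold was added. Of 28 glycolysis and glycogen genes *Pfkfb1*, a regulator of glycolysis, fell (log2 fold change −0.96, SE 0.23).

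Adipocyte markers leaned downward without passing the test. None of 21 white adipocyte markers had a positive log2 fold change and the median was −0.80, but none fell by DESeq2 (5 had an edgeR unadjusted p under 0.05). The summed level of the 21 was 3826 to 10040 CPM in WT and 2509 to 5416 CPM in KO, and 4 of them were liver-enriched. In the fit with the liver RNA covariate 5 fell, *Plin4*, *Lep*, *Agpat2*, *Car3* and *Thrsp*, and 7 fell without KO 2. Genes in this and the preceding paragraph that passed in such fits alone were named after their values were seen. *Adipoq*, adiponectin, was at 124, 130.5, 53.8 and 276 CPM in WT and 102, 94.1 and 34.6 CPM in KO, with overlapping genotypes. Of 17 endothelial and mural markers *Flt1*, a VEGF receptor of vessels, fell (log2 fold change −0.61, SE 0.15), and the summed level of the list was 1609 to 1962 CPM in WT and 1369 to 1587 CPM in KO. Schwann cell, erythroid and mesothelial markers numbered 12, 8 and 15 measured genes, of which none rose or fell (3, 0 and 0 had an edgeR unadjusted p under 0.05). The globin genes *Hba-a1* and *Hba-a2* of the erythroid list fell both with the liver RNA covariate and without KO 2, and *Aldh1a2* of the mesothelial list rose without KO 2.

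**Figure D4:**
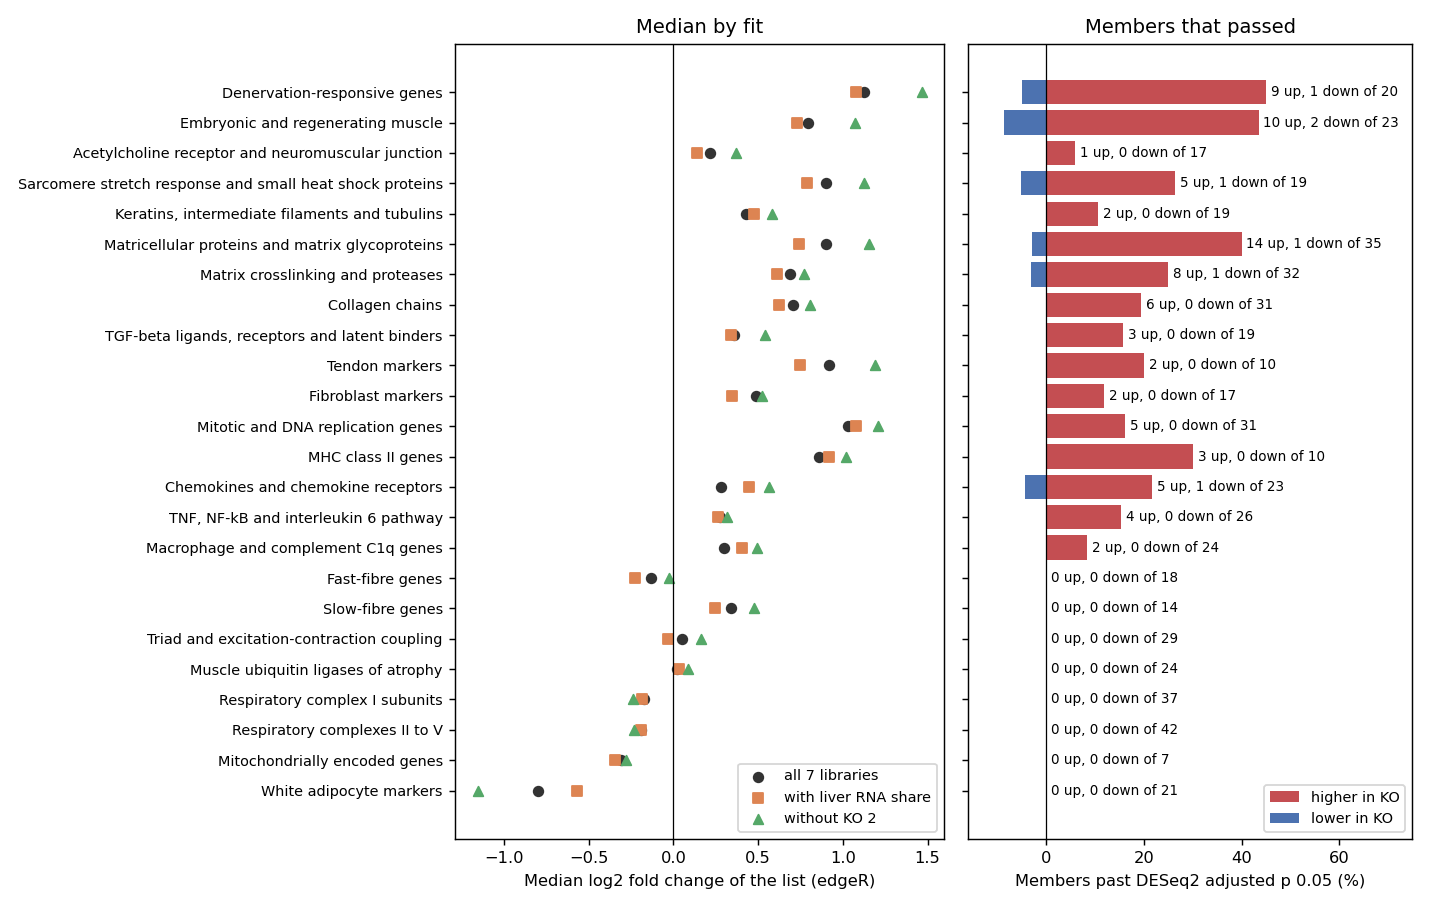
Left, the median log2 fold change (edgeR) of 24 gene lists with all 7 libraries, with the liver RNA share as a covariate and without KO 2. Right, the percent of measured members that rose (red) or fell (blue, drawn to the left) at a DESeq2 adjusted p under 0.05, with their numbers. Denervation-responsive, embryonic and matricellular lists had the most risen members, 9 of 20, 10 of 23 and 14 of 35, whereas contractile, triad, ubiquitin ligase and respiratory lists had none.

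Where the mean level was 5 CPM or more and neither overlap nor liver enrichment occurred, several of the 10 largest falls were in noncoding RNAs and little-known genes, and *Gm11512*, of lower level, was an edgeR call. *Gm11512* (ENSMUSG00000081043, mm10 chr11:90538484-90539146, minus strand) was at 1.603, 1.68, 2.06 and 2.15 CPM in WT and 0.108, 0.0853 and 0.101 CPM in KO (log2 fold change −4.18, SE 0.26, edgeR adjusted p = 0.013). A pseudogene can have near-identical copies elsewhere. Only uniquely aligned reads were counted, so reads that match several copies were dropped, and its counts are uncertain. *B230312C02Rik*, a long intergenic noncoding RNA, was at 26.3, 29.8, 28.6 and 13.96 CPM in WT and 4.29, 3.37 and 2.85 CPM in KO (log2 fold change −2.81, SE 0.31, DESeq2 adjusted p = 2.7e-15). *Gm13340*, another pseudogene, was at 16.3, 20.04, 19.7 and 19.2 and 6.65, 5.802 and 8.06 CPM. The 3 RNAs were low in all KO libraries, KO 2 included, and each passed edgeR with the liver RNA covariate, with adjusted p of 0.0088, 0.03 and 0.019. *Klk1b22*, a glandular kallikrein, fell from 11.6 to 13.1 to 1.53 to 4.22 CPM, *Lgr6*, an R-spondin receptor, from 27.5 to 45.9 to 6.42 to 14.1 CPM, and *Mylk4*, a muscle kinase of the myosin light chain kinase family, from 103 to 254 to 58.3 to 70.6 CPM. *Ybx2*, an RNA-binding protein, and *Gm11827* had log2 fold changes of −1.36 (SE 0.22) and −1.33 (SE 0.33). In the circadian clock list 1 of 19 genes rose and 1 fell. *Nr1d1*, the clock repressor REV-ERB alpha, was at 201, 157, 159 and 114 CPM in WT and 81.95, 79.4 and 86.2 CPM in KO (log2 fold change −0.94, SE 0.19), and *Npas2*, an activator of the clock, rose by 1.09 (SE 0.31).

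The gastrocnemius, a hindlimb muscle with 4 libraries per genotype, served to ask where the diaphragm response differed. A contrast within 1 edgeR fit of both muscles tested whether their genotype effects differ, and it passed for 41 of 17509 genes (0.234%), 15 with the greater value in the diaphragm (0.0857%) and 26 with the smaller (0.148%). With the liver RNA share as a covariate 326 genes passed (1.86%). Of the 97 genes chosen by the naming rule that rose or fell in the diaphragm and were measured in both muscles, 4 passed, *Gm11512*, *Gm13340*, *Actbl2* and *Cxcl10*. The wide spread in the diaphragm limits this test, so the other genes are not shown to respond alike. *Ankrd1* had log2 fold changes of 5.32 (SE 0.93) in the diaphragm and 4.52 (SE 0.38) in the gastrocnemius, *Mstn* of −1.70 (SE 0.25) and −1.72 (SE 0.18), and *Thbs4* of 2.92 (SE 0.56) and 0.87 (SE 0.41). *Cxcl10* rose less in the diaphragm, by 1.51 (SE 0.41) against 6.03 (SE 0.48), and *Msln*, the mesothelial marker, had a value of 0.41 (SE 0.29) against 4.57 (SE 0.53). Both gastrocnemius folds start from very low WT levels. On the scale of the fit of both muscles, *Cxcl10* was at 0.0333 to 0.0932 CPM in WT gastrocnemius and 0.273 to 1.03 CPM in WT diaphragm. *Msln* was at 0.0824 to 0.373 CPM in WT gastrocnemius, 3.02 to 11.9 CPM in KO gastrocnemius and 42.8 to 107 CPM in WT diaphragm.

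Several genes that were among the 41 differed in level between the muscles already in WT, and the following were chosen after their values were seen. Their CPM are on the scale of the joint fit of both muscles. *Amd1*, an enzyme of polyamine synthesis, was at 145 to 224 CPM in WT and 17.2 to 23.9 CPM in KO gastrocnemius, but at 5.70 to 11.1 CPM in WT and 4.77 to 6.05 CPM in KO diaphragm. *Smox*, which breaks polyamines down, was at 242 to 284 CPM in WT and 61.1 to 96.7 CPM in KO gastrocnemius, and at 10.3 to 13.8 CPM and 10.1 to 12.5 CPM in the diaphragm. *Sln* was at 5.33 to 20.6 CPM in WT and 135 to 477 CPM in KO gastrocnemius, and at 268 to 408 CPM and 300 to 617 CPM in the diaphragm. *Gadd45a* was at 12.7 to 18.8 CPM in WT and 51.9 to 112 CPM in KO gastrocnemius, and at 6.60 to 12.9 CPM and 7.60 to 13.3 CPM in the diaphragm. In each of the 4 genes the gastrocnemius genotypes were far apart while those of the diaphragm overlapped. Among the 26 with the smaller value in the diaphragm, 8 were pseudogenes that were lower in every KO than in every WT diaphragm library, as were 4.57% of all tested genes. They were *Gm11512*, *Gm43531*, *Gm13340*, *Gm11410*, *Gm28926*, *Gm8659*, *Gm5139* and *Gm6444*, and their counts are uncertain for the reason given for *Gm11512*. The 26 were picked by a test on the same libraries that favours low KO values in the diaphragm. The count of 8 therefore describes them and tests nothing.

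**Figure D5:**
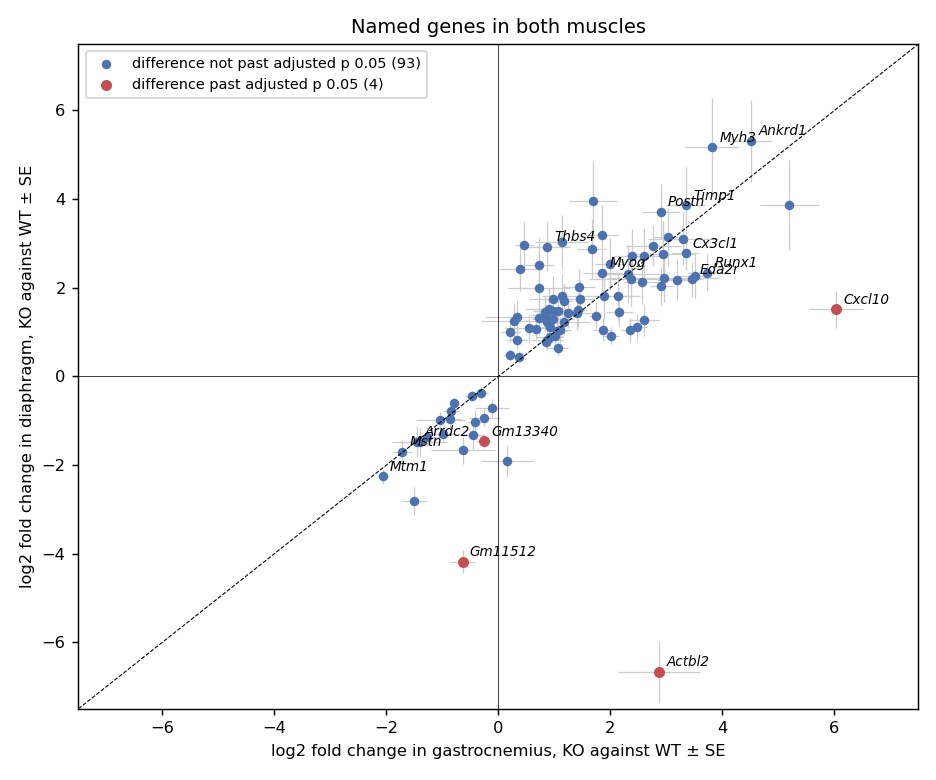
Log2 fold change with its standard error in the gastrocnemius (x axis) and the diaphragm (y axis) for the 97 genes chosen by the naming rule that rose or fell in the diaphragm, with the dashed line marking equal values. The 4 genes whose difference passed are in red, *Cxcl10*, *Actbl2*, *Gm11512* and *Gm13340*, and they lie on the lower side of the line.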

How the data were processed

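The authors deposited raw read counts per gene, the unit of every value used here. Per the methods and labels, poly(A) libraries were made from total RNA with a stranded kit and read once over 50 bases on an Illumina HiSeq instrument. Reads were demultiplexed with bcl2fastq 2.17.1.14, trimmed with cutadapt 1.10, aligned to mm10 with STAR 2.5.3a and counted with HTSeq 0.6.1p1 on Ensembl 96. Per the methods, only uniquely aligned reads that could be assigned without ambiguity were kept. The strand setting of the counting is not given in the sources used here, so reads of a gene and an antisense partner may not be separated.

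Libraries were grouped by their titles, and each was 1 mouse. Genes of the 7 diaphragm libraries were filtered with filterByExpr (count minimum 10), scaled by TMM and compared by edgeR's quasi-likelihood F test (R 4.3.3, edgeR 4.0.16), with Benjamini-Hochberg adjustment over the 16796 genes tested. An SE is the absolute log2 fold change divided by the square root of F. DESeq2 1.42.0, the tool of the study, and limma voom 3.58.1 were alternatives. The liver RNA share entered as log2 in a covariate, or the WT liver profile times the share was subtracted. The alternatives also covered other size factors, no filter, robust estimation, all 30 libraries in the fit, liver-enriched genes left out (1527 genes), the replicate number as a block and each library left out.

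The 56 gene lists and the genes described were chosen with earlier results of these data known. Named genes are *Mtm1*, genes the study names for muscle, edgeR calls, the 15 largest rises and 10 largest falls called by DESeq2 at a mean of at least 5 CPM without overlap or liver enrichment, the 2 most abundant members of a list in which none passed an adjusted p of 0.05, otherwise at most 6 passing members by smallest edgeR p, and defining markers. A few genes that this rule selects are not reported here. Gene positions come from GENCODE M21 and promoters from RefSeq. Of the 36103 genes 20 symbols belong to more than 1 gene, which were kept apart by identifier. With 3 and 4 mice, p-values rate the genotype difference against the spread between these mice.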

Additional observations from a re-analysis of the deposited data

Results flagged for a closer look

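Among 147 measures tested for a WT library far from the other 3, 7 had one, and chance alone flags about 1 in 20 groups. WT 3, the WT library nearly free of liver RNA, stood apart in 6 of the 7. It was the highest WT library for *Cx3cl1* (6.20 CPM), *Lgr6* (45.95 CPM), *Ccl11* (13.25 CPM) and the summed endothelial and mural markers (1962 CPM), it scored 71.66 on the first principal component, and it was the lowest for the summed lung and airway epithelium markers (1.416 CPM). WT 2 was the lowest WT library for *Chrng* (0.2608 CPM). The part of liver RNA in the values of WT 3 was not tested.

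For 41 genes the log2 fold change differed between diaphragm and gastrocnemius by edgeR's test of the difference itself (adjusted p under 0.05 and an absolute difference over 1). Among the named genes the difference, diaphragm minus gastrocnemius, was −3.54 for *Gm11512*, −1.21 for *Gm13340*, −4.56 for *Cxcl10* and −4.17 for *Msln*. For *Actbl2* the fitted difference was −9.35, which depends on the prior count since the KO diaphragm libraries had no count of it.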

How the results depend on the processing

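edgeR's 2 calls were the same number with DESeq2's size factors, with no filter, with robust estimation and at the adjusted p alone. The count was 9 with voom, 201 with all 30 libraries in the fit, 28 with the liver RNA covariate, 4 with liver-enriched genes left out, 0 after subtraction (2439 at an unadjusted p under 0.05), 296 with the covariate and without KO 2 (chosen after seeing the data) and 301 by DESeq2. Leaving out 1 library gave 0 to 140 edgeR calls, with 0 without WT 1, WT 2, KO 1 or KO 4 (1110 to 1465 at an unadjusted p under 0.05), 3 without WT 4 and 140 without KO 2. DESeq2's 301 became 302 with the covariate, 346 with liver-enriched genes left out, 400 after subtraction, 438 at the adjusted p alone, 630 with the covariate and without KO 2, and 160 to 962 with 1 library left out, the values past 1.5 times being 177 without WT 2, 190 without WT 4, 164 without KO 1, 160 without KO 4 and 962 without KO 2. The 41 genes that differed from the gastrocnemius became 38 with other size factors, 26 with no filter, 53 with liver-enriched genes left out, 326 with the covariate (chosen after seeing the data) and 5 to 89 with 1 library left out. The libraries whose loss moved it past 1.5 times were WT 1 (8), WT 2 (13), WT 3 (89), WT 4 (5), KO 1 (15) and KO 4 (5). The causes of these shifts were not tested.

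Replicates 1, 2 and 4 occur in both genotypes. The deviations of same-numbered libraries from their group means correlated at −0.228, 0.46 and −0.637 over all genes. Without liver-enriched genes the values were 0.0904, −0.0112 and −0.303. The labels do not say that same-numbered mice were paired, and these correlations cannot decide it. With the replicate block edgeR called 0 genes (1269 at an unadjusted p under 0.05), DESeq2 called 184 and the difference from the gastrocnemius passed for 3. Over the named genes that are reported here each alternative value was set against edgeR's main fit. None of 3683 reversed direction, 1029 newly passed, 13 no longer passed and 2641 stayed on the same side. Genes that the naming rule selects but that are not reported were left out of these counts. Direction did reverse among those left out, so the absence of reversals describes the reported genes only. Only *Mtm1* and *Gm11512* passed the main fit, so only these could be lost, and losses of DESeq2 calls are not counted here. After subtraction *Mtm1* itself had a DESeq2 adjusted p of 0.23, since the WT liver profile that was subtracted holds *Mtm1*. Libraries held 24873817 counts or more, so genes near or below 1 CPM rest on few counts. How far depth or the spread between libraries of 1 genotype sets the errors was not tested.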

Other observations

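Other lists held few changed genes. *Atf3*, a stress-induced transcription factor, was at 9.25, 9.18, 11.7 and 8.53 CPM in WT and 108, 14.5 and 22.03 CPM in KO (DESeq2 adjusted p = 0.0076, log2 fold change 2.32, SE 0.66), KO 1 standing far above the rest and the call being lost with the liver RNA covariate (DESeq2 adjusted p = 0.098), and *Mthfd2*, a mitochondrial folate enzyme, rose by 0.82 (SE 0.21), the only 2 of 21 genes of the integrated stress response that passed DESeq2 with genotype alone. *Kcna5*, a voltage-gated potassium channel, fell by a log2 fold change of −0.78 (SE 0.17) in the list of potassium, sodium and chloride channels. Of the 18 members of that list 1 other passed, a gene that rose and is not reported here. Of 35 autophagy and lysosome genes *Ctsk*, the collagen-degrading cathepsin K, was the 1 that rose, from 6.76 to 16.2 CPM to 20.1 to 43.7 CPM.

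*Dio2*, the deiodinase that activates thyroid hormone, was the 1 brown adipocyte marker of 10 that rose, from 2.07 to 4.63 CPM in WT to 5.29 to 13.8 CPM in KO (log2 fold change 1.43, SE 0.38). *Trp63*, a relative of p53 that is best known from squamous epithelium, was at 6.72, 8.99, 8.45 and 8.83 CPM in WT and 15.6, 14.8 and 33.6 CPM in KO (DESeq2 adjusted p = 0.0031, log2 fold change 1.37, SE 0.30), and it rose alone among 4 measured squamous epithelium markers. *Dct*, a melanin synthesis enzyme, was at 0.123, 0.332, 0.424 and 0.268 CPM in WT and 0.798, 0.853 and 2.4 CPM in KO, while the other measured pigment cell markers did not pass. In the cytosolic ribosomal protein list of 32 genes none rose or fell, with a median log2 fold change of 0.12. None of 13 measured genes of polyamine synthesis and breakdown and none of 19 genes of the dystrophin-glycoprotein complex rose or fell by DESeq2 (2 and 3 had an edgeR unadjusted p under 0.05), while without KO 2 *Odc1* and *Azin1* of the former and *Sgcd* and *Sntb2* of the latter rose, *Sgcd* also with the liver RNA covariate. None rose or fell among 26 hepatocyte markers that DESeq2 tested, 27 genes of the tricarboxylic acid cycle and pyruvate dehydrogenase and 30 genes of fatty acid uptake and beta-oxidation (0, 0 and 2 had an edgeR unadjusted p under 0.05). Without KO 2, 7 of the 30 fatty acid genes fell by DESeq2, and with the liver RNA covariate *Cd36* and *Lpl* fell. Single genes fell in those fits in the other lists, *Tat* with the covariate, *Cyp3a11* without KO 2 and *Pcx* in both. KO 1 and KO 4, the KO libraries left without KO 2, held little liver RNA, and its part in the falls without KO 2 was not tested. Genes in this paragraph that passed in those fits alone were named after their values were seen.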
